A study of Homo sapiens with 6 samples.

Results

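The genes described are 40 that code for nonfibrillar collagens, laminin chains and other proteins of the basement membrane, found by symbol among the 23355 genes of a read count table. The counts came from HFL-1, an established line of human fetal lung fibroblasts, which received a control siRNA without a target (siNTC) or either of 2 siRNAs against TAZ (siTAZ #1 and siTAZ #2). Each of the 3 groups has 2 replicates, and the 6 libraries were read on an Ion Proton from cells 48 h into the knockdown. The groups share the line, the transfection reagent and the time and by their labels differ in the siRNA alone, and the knockdown is transient and acts in a single cell line. TAZ, encoded by WWTR1, is a transcriptional coactivator that binds DNA through TEAD factors, and the comparisons ask which of these matrix genes changed when TAZ was depleted.

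A basement membrane is a thin sheet of extracellular matrix that underlies epithelia and endothelia and surrounds muscle cells, and in the lung it lies between the alveolar epithelium and the capillaries. Its networks are built of laminins, each a trimer of an alpha, a beta and a gamma chain, and of collagen IV, joined by nidogens and by the heparan sulfate proteoglycans perlecan and agrin. Nonfibrillar collagens do not form the banded fibrils of collagen I. They make networks, beaded filaments and anchoring fibrils, sit on the surface of other fibrils, or span the cell membrane. Fibroblasts secrete many of them.

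WWTR1, the target of both siRNAs, had 132 and 131 CPM with siNTC, 26.4 and 28.4 with siTAZ #1, and 46.1 and 43.1 with siTAZ #2. It fell by 2.26 on the log2 scale with siTAZ #1 (SE 0.10, FDR 0.00062) and by 1.56 with siTAZ #2 (SE 0.10, FDR 0.00068), and the level with siTAZ #1 was lower than with siTAZ #2 by a log2 difference of -0.70 (SE 0.10, FDR 0.005), a call lost in edgeR's exact test (FDR 0.24). Levels are CPM, counts scaled to a common library size with TMM factors, and FDR is the p-value of edgeR's quasi-likelihood test adjusted by the Benjamini-Hochberg method over all 14053 genes that passed its filter on low counts. A gene is called where its FDR is below 0.05. The libraries held 15648055 to 32078188 counts. One library, siTAZ #1 replicate 2, nearly lacks counts from RANGAP1 on chromosome 22 to the end of the Y chromosome, where it had 0.248% of its counts and the others 3.58% to 3.75%. None of the 40 genes lies there, but the common dispersion of the fit was 0.0807 with the genes of that stretch and 0.0163 without them. All 10 fibroblast markers had at least 1 CPM in every library, while 5 of 10 epithelial, 5 of 8 endothelial and 5 of 6 immune markers were below 1 CPM in all of them. The summed fibroblast markers ran from 29085 to 29721 CPM with siNTC, from 18677 to 19481 with siTAZ #1 and from 23473 to 24532 with siTAZ #2, and COL1A1, COL1A2 and VIM made up 84.9% to 93.0% of these sums. Taken singly, 4 of the 10 were called lower and 3 higher with siTAZ #1 (PDGFRA, PDGFRB and FAP), and 4 lower and 2 higher with siTAZ #2 (THY1 and PDGFRB). The 8 smooth muscle and pericyte markers, all at 1 CPM or more, summed to 1025 to 1169, 960 to 1257 and 657 to 690 CPM in the same order. TAGLN, at 466 to 911 CPM over all libraries, and ACTA2, at 102 to 298, made up most of these sums. Of the 8 markers, 1 was called lower and 2 higher with siTAZ #1 (ACTA2 and NOTCH3). With siTAZ #2, 3 were called lower, ACTA2 among them, and 2 higher (DES and NOTCH3). The summed epithelial markers were 46.1 to 73.0 CPM over all libraries, the endothelial 27.7 to 48.3 and the immune 38.3 to 75.9, and the part of any of these shifts in the results that follow was not tested. In RNA from a whole culture, fewer cells of a type and less RNA per cell cannot be told apart.

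Of the 40 genes, 34 passed the filter, and 6 did not: COL6A6, COL9A3, COL22A1, COL25A1, COL28A1 and LAMC3, with 0 to 13 counts in any library. With siTAZ #1, 4 of the 34 fell (11.8%, beside 9.78% of all genes tested) and 10 rose (29.4%, beside 10.8%). With siTAZ #2, 5 fell (14.7%, beside 14.4%) and 15 rose (44.1%, beside 14.1%). The shares that fell were thus near those of all genes, and the shares that rose were larger. The median log2 fold change of the 34 was 0.16 with siTAZ #1 and 0.56 with siTAZ #2, against 0.02 and 0.01 over all genes tested. With siTAZ #1 it was 0.07 for the 27 with a mean count of at least 50. Without siTAZ #1 replicate 2 it was 0.08 and without replicate 1 it was 0.33, over the genes then tested. The siTAZ #2 median ran from 0.45 to 0.61 over the alternatives. COL6A2, COL7A1, COL12A1, COL13A1, COL15A1, LAMA1 and LAMB1 rose with both siRNAs, 7 genes where 5.49% of all genes did so, and LAMA4 alone fell with both, as 3.74% of all genes did. COL6A1 and LAMC1 changed in opposite directions, where 1.52% of all genes did. Both comparisons use the same siNTC libraries.

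The siRNAs also differed from each other, and a difference between them is given throughout as siTAZ #1 minus siTAZ #2 on the log2 scale. Of the 34 genes, 13 were lower with siTAZ #1 than with siTAZ #2 (38.2%, beside 13.4% of all genes) and 5 were higher (14.7%, beside 15.2%). The calls were not equally stable over the 20 to 21 alternative settings tried for each gene. Those named below are edgeR's exact test or its quasi-likelihood fit on the 4 libraries of a comparison, a replicate block (the replicate number as a term of the fit), an offset that removes a smooth trend of each library with GC content or transcript length, and the omission of 1 library. The GC offset was also combined with a replicate block, and calls lost in that setting are not listed for every gene. With siTAZ #1, 14 of the 34 were called either way (20.6% of all genes were), and 1 of these calls, that of COL12A1, held under every alternative. With siTAZ #2, 20 were called (28.5% of all genes were) and 11 held: COL7A1, COL12A1, COL16A1, LAMA5, LAMB1, LAMB2 and AGRN, which rose, and COL14A1, LAMA4, LAMC1 and NID2, which fell. Between the siRNAs, 18 were called (28.6% of all genes were) and 9 held. Without the genes from RANGAP1 onward, 8 of the 34 were higher with siTAZ #1 than with siTAZ #2, beside 19.4% of all genes. Leaving out either siNTC library cut the genes that fell with siTAZ #1 from 4 to 0 and those that rose from 10 to 1 without replicate 1 and to 2 without replicate 2. At an unadjusted p under 0.05, edgeR's quasi-likelihood test found 7 lower and 11 higher with all libraries, 4 and 9 without replicate 1 and 4 and 11 without replicate 2, and DESeq2 called 4 lower with all libraries. The same omissions cut the genes that rose with siTAZ #2 from 15 to 7 and to 8, and leaving out either siTAZ #2 library cut them to 9. The shares of all genes under these omissions are not given here, so the losses are not read as particular to the 34 genes. Together the 40 genes took 1.70% and 1.76% of the counts with siNTC, 1.99% and 1.97% with siTAZ #1, and 2.38% and 2.48% with siTAZ #2.

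Promoter sequences are shown for 3 places on which the results turn: the stretch shared by COL4A1 and COL4A2, which moved as a pair, the upstream region of COL12A1, which rose in every setting, and that of NID2, which fell with siTAZ #2 in every setting. They come from the RefSeq promoter table on GRCh38.p14, which held windows for 32 of the 40 genes, 39 windows in all. Each was searched on both strands, in the 250 bases before the start, for the TEAD core GGAATG or CATTCC, the GC box GGGCGG or CCGCCC, and the CCAAT box CCAAT or ATTGG. These matches are in capitals. The first sequence is the 126 bases between the starts of COL4A1 on the minus strand and COL4A2 on the plus strand, read on the plus strand, and the other sequences are the 250 bases before each start on the gene's own strand.
COL4A1-COL4A2 chr13:110307158-110307283: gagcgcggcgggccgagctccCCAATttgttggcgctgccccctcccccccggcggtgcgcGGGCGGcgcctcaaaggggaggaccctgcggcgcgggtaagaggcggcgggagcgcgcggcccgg
COL12A1 chr6:75206054-75206303: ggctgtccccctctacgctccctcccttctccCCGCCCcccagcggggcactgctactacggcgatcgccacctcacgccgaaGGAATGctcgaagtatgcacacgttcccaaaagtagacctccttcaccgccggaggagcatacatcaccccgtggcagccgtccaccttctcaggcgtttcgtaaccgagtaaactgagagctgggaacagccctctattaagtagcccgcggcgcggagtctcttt
NID2 chr14:52069060-52069309: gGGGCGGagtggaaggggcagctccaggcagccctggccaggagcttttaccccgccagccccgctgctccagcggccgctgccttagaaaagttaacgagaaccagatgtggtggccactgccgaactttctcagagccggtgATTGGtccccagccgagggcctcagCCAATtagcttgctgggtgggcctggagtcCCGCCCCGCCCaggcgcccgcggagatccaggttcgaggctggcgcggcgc
The stretch between COL4A1 and COL4A2 was 80.2% G or C and held 1 GC box and 1 CCAAT box. The COL12A1 window held the TEAD core 167 bases before the start, and the NID2 window held 3 GC boxes and 2 CCAAT boxes and no TEAD core. The TEAD core was in 3 of the 39 windows, those of COL12A1, LAMA2 and 1 of the COL10A1 windows, and in 11.9% of the 35116 windows of all genes. The GC box was in 26 of the 39 and in 42.6% of all windows, and the CCAAT box in 9 of the 39 and in 32% of all. The matches are descriptions of letters and not binding sites.

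In siNTC cells, levels compared per kilobase of the longest annotated transcript were highest for the 3 chains of collagen VI. COL6A3 had 651 ± 31.1 CPM per kilobase (SD, n = 2), COL6A2 545 ± 15.3 and COL6A1 412 ± 30.4, followed by COL4A2 with 177 ± 2.76 and COL4A1 with 162 ± 1.01. The order from COL6A3 to COL4A1 was larger than the spread between these pairs of libraries. It rests on the length used: per kilobase of the union of all exons, COL6A2 (352) came before COL6A3 (319) and COL6A1 (313), and LAMC1 and NID2 moved ahead of COL4A1 (72.1) and COL4A2 (59.2). The lowest gene was LAMC3, with 0 and 1 counts.

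**Figure D1:**
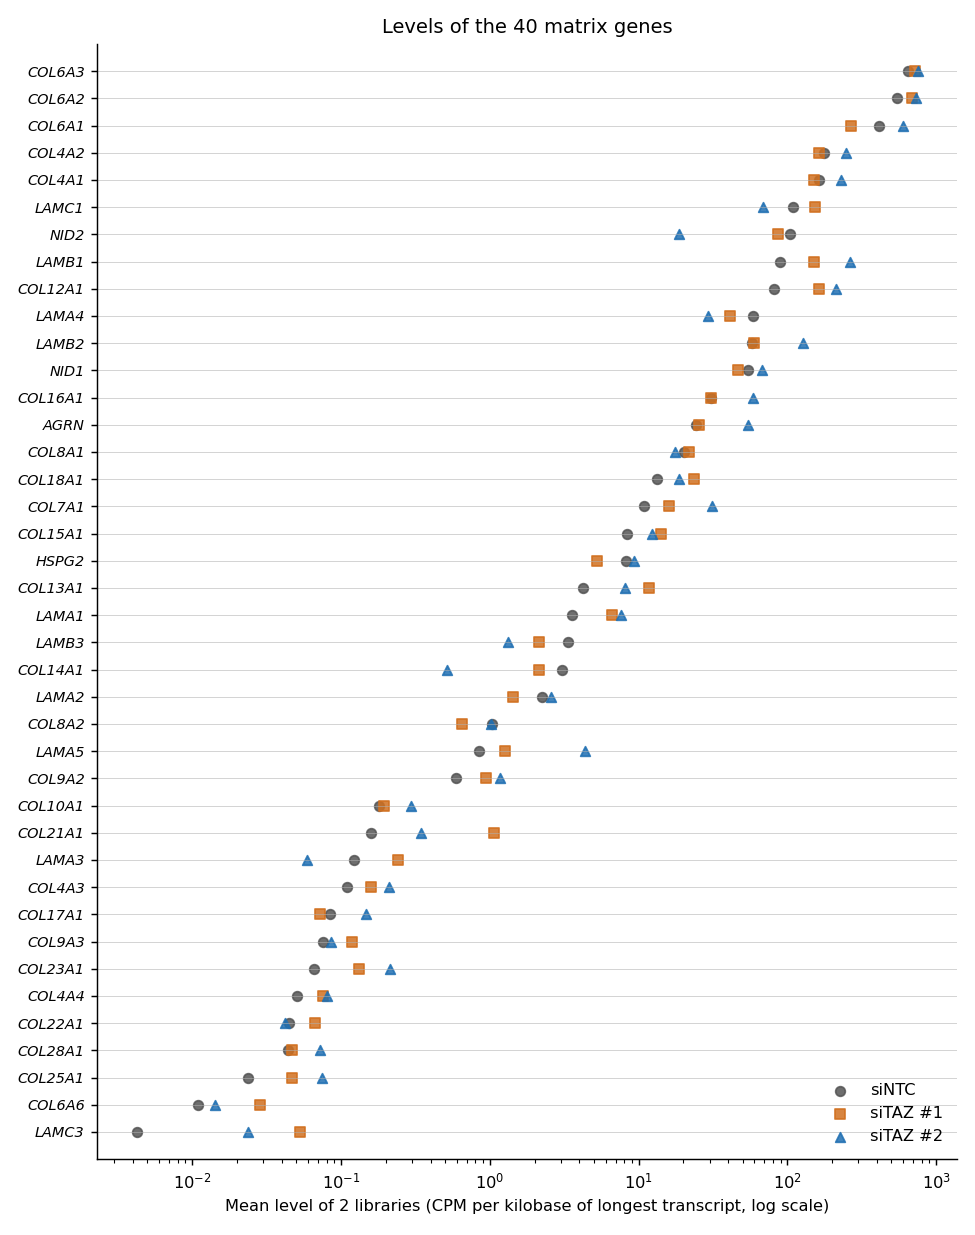
Mean level of each of the 40 genes in CPM per kilobase of longest transcript, on a log scale, for siNTC (circles), siTAZ #1 (squares) and siTAZ #2 (triangles), each the mean of 2 libraries, ordered by siNTC. The genes span from 651 for COL6A3 to 0.00423 for LAMC3 with siNTC, and the triangles of NID2 and COL14A1 stand left of their circles while that of LAMA5 stands right.

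COL4A1 and COL4A2 encode the alpha 1 and alpha 2 chains that make up the most widespread collagen IV trimer, and they lie head to head (chromosome 13, 110801310 to 110959504 on the minus strand and chromosome 13, 110958159 to 111165556 on the plus strand). Gene positions here and below are of GRCh37, and rises and falls against siNTC are log2 fold changes. COL4A1 had 1062 and 1053 CPM with siNTC, 903 and 1066 with siTAZ #1, and 1486 and 1531 with siTAZ #2. COL4A2 had 1128 and 1153 CPM with siNTC, 961 and 1136 with siTAZ #1, and 1560 and 1634 with siTAZ #2. For both genes the siTAZ #2 libraries stood above all 4 others. COL4A1 rose with siTAZ #2 by 0.51 (SE 0.10, FDR 0.015) and COL4A2 by 0.49 (SE 0.10, FDR 0.019), while with siTAZ #1 they were at -0.10 (SE 0.10, FDR 0.51) and -0.12 (SE 0.10, FDR 0.45) and were not called. The siRNAs differed by -0.62 (SE 0.10, FDR 0.0081) for COL4A1 and -0.61 (SE 0.10, FDR 0.0091) for COL4A2. The pair kept an almost fixed proportion: the ratio of COL4A1 to COL4A2 counts was 0.942 and 0.913 with siNTC, 0.94 and 0.938 with siTAZ #1, and 0.953 and 0.937 with siTAZ #2. In the GRCh37 annotation the genes overlap at their starts on opposite strands, and the strand setting of the counting is not given in the sources used here, so reads in the overlap cannot be assigned. The siTAZ #2 calls of both genes were lost when any siNTC or siTAZ #2 library was left out (FDR 0.068 to 0.14) and with an offset for GC content, which left COL4A1 at 0.51 (FDR 0.10) and moved COL4A2 to 0.23 (FDR 0.39), and that of COL4A2 also with an offset for transcript length (FDR 0.06). The differences between the siRNAs were lost with the GC offset (FDR 0.19 and 0.39), in the exact test (FDR 0.22 and 0.23) and without siTAZ #2 replicate 2 (FDR 0.058 and 0.064). COL4A3 and COL4A4, which encode chains of the collagen IV of kidney glomeruli and alveoli, stayed at 0.483 to 1.75 CPM in every library and were not called.

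The collagen VI chains form beaded microfilaments next to basement membranes and around cells, and a monomer joins an alpha 1 and an alpha 2 chain with a longer chain such as alpha 3. COL6A1 (chromosome 21, 47401684 to 47424964) had 1643 and 1823 CPM with siNTC, 1092 and 1158 with siTAZ #1, and 2509 and 2553 with siTAZ #2. It fell with siTAZ #1 by 0.62 on the log2 scale (SE 0.09, FDR 0.0075) and rose with siTAZ #2 by 0.55 (SE 0.09, FDR 0.0082), and the 3 groups did not overlap. The difference between the siRNAs was -1.17 (SE 0.09, FDR 0.001). COL6A2 (chromosome 21, 47518026 to 47552762), its neighbor, had 1840 and 1914 CPM with siNTC, 2418 and 2359 with siTAZ #1, and 2497 and 2544 with siTAZ #2 and rose with both, by 0.35 (SE 0.08, FDR 0.029) and 0.43 (SE 0.08, FDR 0.012). The siRNAs did not differ detectably in COL6A2 (-0.08, SE 0.08, FDR 0.51). COL6A3 (chromosome 2, 238232646 to 238322971), the longest chain, made up 33.0% to 39.9% of all counts on the 40 genes. It had 6624 and 7088 CPM with siNTC, 8002 and 7162 with siTAZ #1, and 7714 and 8282 with siTAZ #2. Every siTAZ library stood above both siNTC libraries, but COL6A3 was not called with either siRNA (0.15, SE 0.10, FDR 0.37, and 0.22, SE 0.10, FDR 0.17). It was called higher with siTAZ #2 in 4 of 21 alternatives, among them the exact test and a fit of 4 libraries. With siTAZ #1 it was called higher in 1 of 21. The ratio of COL6A1 to COL6A2 counts was 0.893 and 0.953 with siNTC, 0.452 and 0.491 with siTAZ #1, and 1.00 and 1.00 with siTAZ #2, so that the siTAZ #1 libraries stood apart in this proportion.

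Both COL6A1 and COL6A2 are rich in G and C (63.5% and 66.4% of the longest transcript), and their siTAZ #2 calls were lost with an offset for GC content. COL6A1 was then at 0.20 (FDR 0.32) and COL6A2 at -0.08 (FDR 0.63) with siTAZ #2. The fall of COL6A1 with siTAZ #1 was lost in the exact test (FDR 0.20) and without siNTC replicate 1 (FDR 0.056) or replicate 2 (FDR 0.082), and the rise of COL6A1 with siTAZ #2 without either siNTC library (FDR 0.095 and 0.057) or siTAZ #2 replicate 2 (FDR 0.062). With siTAZ #1 the COL6A2 call was lost without any siNTC or siTAZ #2 library (FDR 0.068 to 0.23), in the exact test (FDR 0.64), in a fit of 4 libraries (FDR 0.072), with a replicate block (FDR 0.079) and with the GC offset (FDR 0.12), and its siTAZ #2 call without any siNTC or siTAZ #2 library (FDR 0.062 to 0.14). The GC offset and a replicate block together also ended the COL6A1 and COL6A2 calls with both siRNAs. The difference of COL6A1 between the siRNAs held in every alternative.

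Collagen VII forms the anchoring fibrils that tie a basement membrane to the stroma below. COL7A1 (chromosome 3, 48601506 to 48632762) had 104 and 96.7 CPM with siNTC, 159 and 140 with siTAZ #1, and 277 and 299 with siTAZ #2. The 3 groups were ordered without overlap. It rose by 0.58 (SE 0.10, FDR 0.013) with siTAZ #1 and by 1.52 (SE 0.10, FDR 0.00069) with siTAZ #2, and the siRNAs differed by -0.95 (SE 0.10, FDR 0.0022). The siTAZ #1 call was lost in the exact test (FDR 0.28) and without siNTC replicate 1 (FDR 0.089) or 2 (FDR 0.12). Of the short-chain network collagens, COL8A1, found in the subendothelial matrix, had 116 and 115 CPM with siNTC, 120 and 129 with siTAZ #1, and 97.9 and 103 with siTAZ #2 and was called between the siRNAs alone (0.31, SE 0.08, FDR 0.034), a call lost in 12 of the 21 alternatives, among them the omission of either siNTC library (FDR 0.081 for each), of siTAZ #1 replicate 2 (FDR 0.10) and of siTAZ #2 replicate 1 (FDR 0.15) or 2 (FDR 0.097). COL8A2 and COL10A1 were not called.

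Fibril-associated collagens bind the surface of collagen fibrils, and among them were a rise with both siRNAs and a steep fall. COL12A1 (chromosome 6, 75794042 to 75915983), whose long chain crosslinks fibrils in tissues under tension and whose upstream sequence is printed above, had 967 and 951 CPM with siNTC, 1934 and 1857 with siTAZ #1, and 2384 and 2582 with siTAZ #2. All 4 siTAZ libraries lay well above both siNTC libraries. It rose by 0.98 (SE 0.08, FDR 0.0017) with siTAZ #1 and 1.37 (SE 0.08, FDR 0.00064) with siTAZ #2, and both calls held in every alternative. The siRNAs differed by -0.39 (SE 0.08, FDR 0.019), a call lost in the exact test (FDR 0.51), in a fit of 4 libraries (FDR 0.077), with a replicate block (FDR 0.053), with the GC offset (FDR 0.05) and without either siNTC library (FDR 0.075 and 0.076) or siTAZ #2 library (FDR 0.054 and 0.12). COL14A1 (chromosome 8, 121072019 to 121385812), a close relative of COL12A1 that limits fibril growth, had 29.7 and 19.2 CPM with siNTC, 17.7 and 16.7 with siTAZ #1, and 2.94 and 5.32 with siTAZ #2. Its siTAZ #2 libraries lay below all others, while its siTAZ #1 libraries lay just below siNTC. COL14A1 fell with siTAZ #2, at -2.57 (SE 0.36, FDR 0.0049), was not called with siTAZ #1 (-0.51, SE 0.33, FDR 0.33), and the siRNAs differed by 2.06 (SE 0.35, FDR 0.0091). COL16A1 (chromosome 1, 32117864 to 32169920), a minor collagen of fibril surfaces, had 164 and 170 CPM with siNTC, 166 and 166 with siTAZ #1, and 306 and 334 with siTAZ #2 and rose with siTAZ #2 by 0.94 (SE 0.08, FDR 0.0012), beside -0.01 (SE 0.08, FDR 0.95) with siTAZ #1. The siRNAs differed in COL16A1 by -0.94 (SE 0.08, FDR 0.0013). COL14A1 and COL16A1 kept these calls in all alternatives.

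COL21A1, a small fibril-associated collagen, was scarce in every group. Its counts were 4 and 17 with siNTC, 78 and 127 with siTAZ #1, and 29 and 25 with siTAZ #2, or 0.254 and 1.07 CPM with siNTC, 5.03 and 3.9 with siTAZ #1, and 1.36 and 1.51 with siTAZ #2. The siTAZ #1 libraries were the highest and the siNTC libraries spread the widest on the log scale. COL21A1 rose with siTAZ #1 by 2.73 (SE 0.61, FDR 0.029) and was not called with siTAZ #2 (1.10, SE 0.62, FDR 0.24) or between the siRNAs (1.63, SE 0.56, FDR 0.077). The log2 fold change with siTAZ #1 ran from 2.04 without siNTC replicate 1 (FDR 0.079) to 4.09 without siNTC replicate 2, and the call was also lost in a fit of 4 libraries (FDR 0.064), with a replicate block (FDR 0.061) and without siTAZ #2 replicate 1 (FDR 0.066) or 2 (FDR 0.067). COL9A2 was not called.

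Among the transmembrane collagens, COL13A1, which sits at cell-matrix junctions, had 16 and 12.8 CPM with siNTC, 32.9 and 47.4 with siTAZ #1, and 27 and 27.8 with siTAZ #2. Both siTAZ groups lay above siNTC. It rose by 1.48 (SE 0.22, FDR 0.0083) with siTAZ #1 and 0.93 (SE 0.22, FDR 0.026) with siTAZ #2. The first call was lost without siNTC replicate 1 (FDR 0.058) or 2 (FDR 0.078), and the second without any siNTC or siTAZ #2 library (FDR 0.083 to 0.16), with a replicate block (FDR 0.06) and with an offset for transcript length (FDR 0.054). COL17A1 and COL23A1 were at 0.0634 to 0.935 CPM and were not called. The multiplexins COL15A1 and COL18A1 are basement membrane collagens that carry heparan or chondroitin sulfate chains, and the end of the COL18A1 chain is released as endostatin. COL15A1 had 45.6 and 44.7 CPM with siNTC, 77.1 and 77.4 with siTAZ #1, and 73.3 and 61.6 with siTAZ #2 and rose with both siRNAs, by 0.77 (SE 0.12, FDR 0.0091) and 0.58 (SE 0.12, FDR 0.017), without overlap with siNTC. COL18A1 had 81.1 and 92.2 CPM with siNTC, 125 and 183 with siTAZ #1, and 121 and 128 with siTAZ #2. It rose with siTAZ #1 by 0.83 (SE 0.18, FDR 0.029), while its siTAZ #2 value of 0.52 (SE 0.18, FDR 0.085) missed the threshold. Its siTAZ #1 replicates stood further apart than those of the other groups.

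The COL15A1 calls were lost without siNTC replicate 1 or 2 with siTAZ #1 (FDR 0.081 and 0.086) and siTAZ #2 (FDR 0.10 and 0.11), the first also in the exact test (FDR 0.15) and the second without siTAZ #2 replicate 1 (FDR 0.08) and with the GC offset (FDR 0.055). The COL18A1 call was lost without any siNTC or siTAZ #2 library (FDR 0.067 to 0.18), in the exact test (FDR 0.14), in a fit of 4 libraries (FDR 0.066) and with the GC offset (FDR 0.056). That offset put COL18A1 at -0.03 with siTAZ #2 (FDR 0.95), and without siTAZ #1 replicate 2 its value with siTAZ #1 was 0.53. SLC19A1 and an antisense RNA overlap COL18A1 on the other strand.

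The alpha chain gives a laminin its cell-binding end, and the 5 alpha genes did not move as a group. LAMA4 (chromosome 6, 112429134 to 112576141), the alpha chain of mesenchymal and vascular laminins and the alpha chain with the highest level per kilobase here, had 433 and 421 CPM with siNTC, 298 and 297 with siTAZ #1, and 200 and 220 with siTAZ #2. The groups were ordered without overlap. LAMA4 fell with siTAZ #1 by 0.52 on the log2 scale (SE 0.08, FDR 0.0097) and with siTAZ #2 by 1.02 (SE 0.08, FDR 0.001), and the siRNAs differed by 0.50 (SE 0.08, FDR 0.0077). LAMA5 (chromosome 20, 60883011 to 60942368), the alpha chain of most mature epithelial and endothelial basement membranes, had 8.5 and 10.9 CPM with siNTC, 14 and 14.7 with siTAZ #1, and 48.4 and 51.5 with siTAZ #2. It was scarce with siNTC and highest with siTAZ #2. LAMA5 rose with siTAZ #2 by 2.36 (SE 0.17, FDR 0.00081), missed the threshold with siTAZ #1 (0.56, SE 0.16, FDR 0.061) and differed between the siRNAs by -1.80 (SE 0.16, FDR 0.0015). ADRM1, with 6762 counts over the libraries against 2890 for LAMA5, overlaps it on the other strand.

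LAMA1, the alpha chain of the early embryonic laminin, had 36.3 and 38.1 CPM with siNTC, 77.4 and 60.2 with siTAZ #1, and 81.1 and 76 with siTAZ #2 and rose by 0.89 (SE 0.14, FDR 0.011) and 1.08 (SE 0.15, FDR 0.0045), above siNTC in all 4 siTAZ libraries. LAMA2, the alpha chain of muscle laminin, had 22.4 and 22 CPM with siNTC, 15.7 and 12.7 with siTAZ #1, and 24.6 and 26.9 with siTAZ #2. It fell with siTAZ #1 by 0.65 on the log2 scale (SE 0.16, FDR 0.041), was not called with siTAZ #2 (0.22, SE 0.16, FDR 0.37) and differed between the siRNAs by -0.86 (SE 0.16, FDR 0.013). LAMA3, the alpha chain of epithelial anchoring laminin, had 1.08 and 1.51 CPM with siNTC, 3.42 and 1.69 with siTAZ #1, and 0.888 and 0.362 with siTAZ #2 and was not called, although its difference between the siRNAs came close (1.97, SE 0.61, FDR 0.058). The ratio of LAMA5 to LAMA4 counts was 0.0196 and 0.026 with siNTC, 0.047 and 0.0494 with siTAZ #1, and 0.242 and 0.233 with siTAZ #2 and was highest in the siTAZ #2 libraries. The siTAZ #1 calls of LAMA1, LAMA2 and LAMA4 were lost in the exact test (FDR 0.14, 0.38 and 0.31) and without siNTC replicate 1 (FDR 0.10, 0.18 and 0.09) or 2 (FDR 0.089, 0.17 and 0.078). That of LAMA2 was also lost without siTAZ #1 replicate 2 (FDR 0.10), without either siTAZ #2 library (FDR 0.081 each), in a fit of 4 libraries (FDR 0.08), with a replicate block (FDR 0.088) and with the GC offset (FDR 0.059), and its difference between the siRNAs without siTAZ #2 replicate 1 (FDR 0.054) or 2 (FDR 0.085) and in the exact test (FDR 0.15). The siTAZ #2 call of LAMA1 was lost without siNTC replicate 1 (FDR 0.053), and the LAMA4 difference between the siRNAs in the exact test (FDR 0.32). With the GC offset and a replicate block together, the siTAZ #1 calls of LAMA2 and LAMA4 were lost as well.

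LAMB1 and LAMB2 are the beta chains of most laminins, and both rose with siTAZ #2. LAMB1 (chromosome 7, 107564244 to 107643658) had 610 and 593 CPM with siNTC, 1052 and 983 with siTAZ #1, and 1660 and 1885 with siTAZ #2. The 3 groups were ordered without overlap. It rose by 0.76 (SE 0.09, FDR 0.0052) with siTAZ #1 and 1.56 (SE 0.10, FDR 0.00064) with siTAZ #2, and the siRNAs differed by -0.80 (SE 0.09, FDR 0.003). The siTAZ #1 call was lost in the exact test (FDR 0.096) and without siNTC replicate 1 (FDR 0.067) or 2 (FDR 0.073), and the difference in the exact test (FDR 0.074). LAMB2 (chromosome 3, 49158547 to 49170551) had 321 and 337 CPM with siNTC, 353 and 327 with siTAZ #1, and 707 and 750 with siTAZ #2. Its siTAZ #2 libraries stood far above the others, which overlapped. LAMB2 rose by 1.15 (SE 0.08, FDR 0.00084) with siTAZ #2, beside 0.05 (SE 0.08, FDR 0.73) with siTAZ #1, and the siRNAs differed by -1.10 (SE 0.08, FDR 0.001). LAMB3, the beta chain of epithelial anchoring laminin, had 15 and 13.9 CPM with siNTC, 9.16 and 9.32 with siTAZ #1, and 4.35 and 7.13 with siTAZ #2. It fell with siTAZ #2 by 1.34 on the log2 scale (SE 0.27, FDR 0.017) and was not called with siTAZ #1 (-0.65, SE 0.27, FDR 0.14). The siTAZ #2 call was lost without siNTC replicate 1 (FDR 0.09) or 2 (FDR 0.079) or siTAZ #2 replicate 1 (FDR 0.056).

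LAMC1 (chromosome 1, 182992555 to 183114727), the gamma chain shared by nearly all laminins, had 871 and 861 CPM with siNTC, 1224 and 1197 with siTAZ #1, and 533 and 554 with siTAZ #2. It was highest in the siTAZ #1 libraries and lowest in the siTAZ #2 libraries. LAMC1 rose with siTAZ #1 by 0.48 (SE 0.07, FDR 0.0089) and fell with siTAZ #2 by 0.67 on the log2 scale (SE 0.07, FDR 0.0023), a difference of 1.16 (SE 0.07, FDR 0.00072). The siTAZ #1 call was lost in the exact test (FDR 0.42) and without siNTC replicate 1 (FDR 0.099) or 2 (FDR 0.11), while the siTAZ #2 call and the difference held in every alternative. The ratio of LAMB1 to LAMC1 counts was 0.70 and 0.689 with siNTC, 0.859 and 0.821 with siTAZ #1, and 3.12 and 3.41 with siTAZ #2. That of LAMB2 to LAMC1 was 0.368 and 0.391, 0.288 and 0.273, and 1.33 and 1.35 in the same order. Both ratios were highest in the siTAZ #2 libraries. The genes differ in length, so a ratio of counts is compared between libraries and not read as a proportion of chains.

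**Figure D2:**
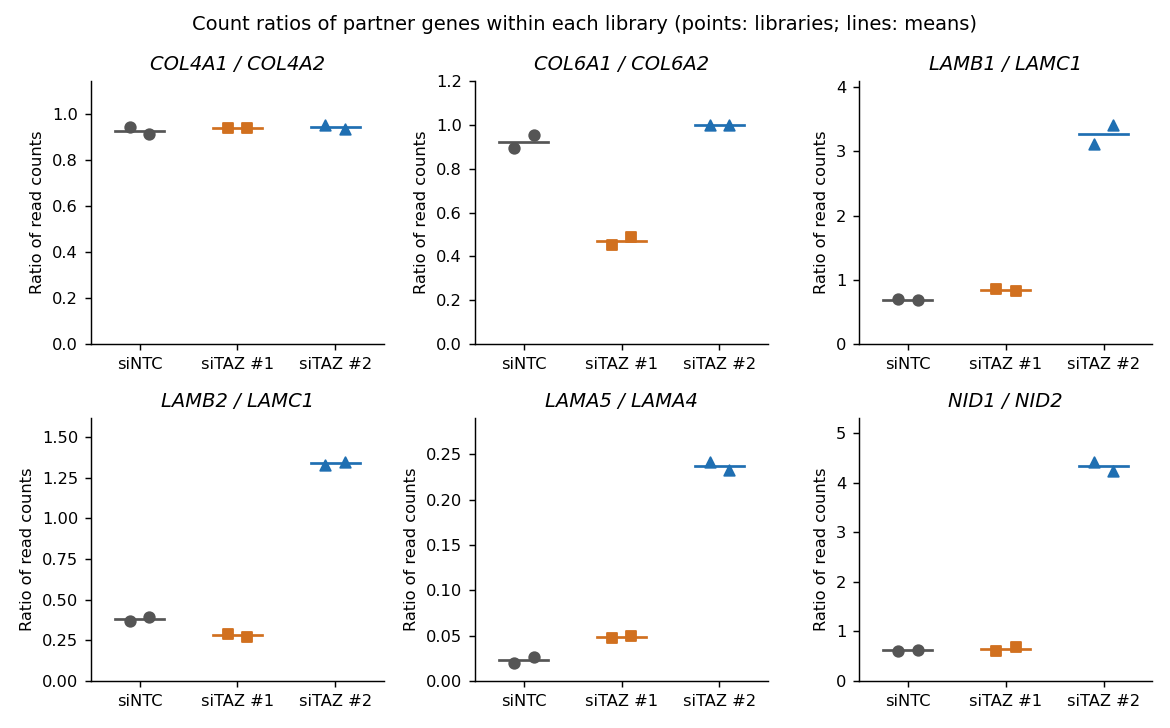
Ratio of read counts of 2 partner genes within a library (y axis, starting at 0) for siNTC, siTAZ #1 and siTAZ #2, where points are the 2 libraries of a group and lines their means. COL4A1 to COL4A2 stays at 0.913 to 0.953 in every library, COL6A1 to COL6A2 is lowest with siTAZ #1, and LAMB1 and LAMB2 to LAMC1, LAMA5 to LAMA4 and NID1 to NID2 are highest with siTAZ #2.

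The nidogens bridge laminin and collagen IV, and their genes went apart with siTAZ #2. NID2 (chromosome 14, 52471527 to 52535777) had 516 and 495 CPM with siNTC, 456 and 385 with siTAZ #1, and 88.8 and 92.5 with siTAZ #2. The siTAZ #2 libraries stood far below the others, and the siTAZ #1 libraries were below siNTC. NID2 fell with siTAZ #2 by 2.48 on the log2 scale (SE 0.11, FDR 0.00037), was not called with siTAZ #1 (-0.27, SE 0.10, FDR 0.12) and differed between the siRNAs by 2.21 (SE 0.11, FDR 0.0005). The siTAZ #2 call and the difference held in every alternative. NID1 (chromosome 1, 236139130 to 236228409) had 314 and 312 CPM with siNTC, 276 and 261 with siTAZ #1, and 393 and 393 with siTAZ #2 and rose with siTAZ #2 by 0.33 (SE 0.07, FDR 0.022), with -0.22 (SE 0.07, FDR 0.084) with siTAZ #1 and a difference of -0.55 (SE 0.07, FDR 0.0041). The NID1 rise was lost without any siNTC or siTAZ #2 library (FDR 0.094 to 0.16) and with a replicate block (FDR 0.057), and its difference in the exact test (FDR 0.26). The ratio of NID1 to NID2 counts was 0.609 and 0.63 with siNTC, 0.605 and 0.677 with siTAZ #1, and 4.43 and 4.25 with siTAZ #2 and set the siTAZ #2 libraries apart. C14orf166, with 10254 counts over the libraries against 39025 for NID2, overlaps NID2 on the other strand.

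Perlecan and agrin are the heparan sulfate proteoglycans of basement membranes, and agrin also clusters acetylcholine receptors at the neuromuscular junction. HSPG2 (chromosome 1, 22148737 to 22263803), which encodes perlecan, had 112 and 123 CPM with siNTC, 78.6 and 72.6 with siTAZ #1, and 138 and 129 with siTAZ #2. It fell with siTAZ #1 by 0.64 on the log2 scale (SE 0.09, FDR 0.008), was not called with siTAZ #2 (0.18, SE 0.09, FDR 0.19) and differed between the siRNAs by -0.82 (SE 0.09, FDR 0.0027). The siTAZ #1 call was lost in the exact test (FDR 0.17) and without siNTC replicate 1 (FDR 0.054) or 2 (FDR 0.076). The GC offset put HSPG2 at -0.21 with siTAZ #2 (FDR 0.17) and its difference between the siRNAs at -0.42 (FDR 0.028), and with a replicate block as well that call was lost (FDR 0.058). AGRN (chromosome 1, 955500 to 991498) had 173 and 191 CPM with siNTC, 181 and 202 with siTAZ #1, and 417 and 398 with siTAZ #2. Its siTAZ #2 libraries were the highest and the other groups overlapped. AGRN rose with siTAZ #2 by 1.16 (SE 0.10, FDR 0.0011), beside 0.07 (SE 0.10, FDR 0.64) with siTAZ #1, and the siRNAs differed by -1.09 (SE 0.10, FDR 0.0014), and both calls held in every alternative, with the GC offset at smaller values of 0.57 (FDR 0.015) and -0.65 (FDR 0.0094).

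**Figure D3:**
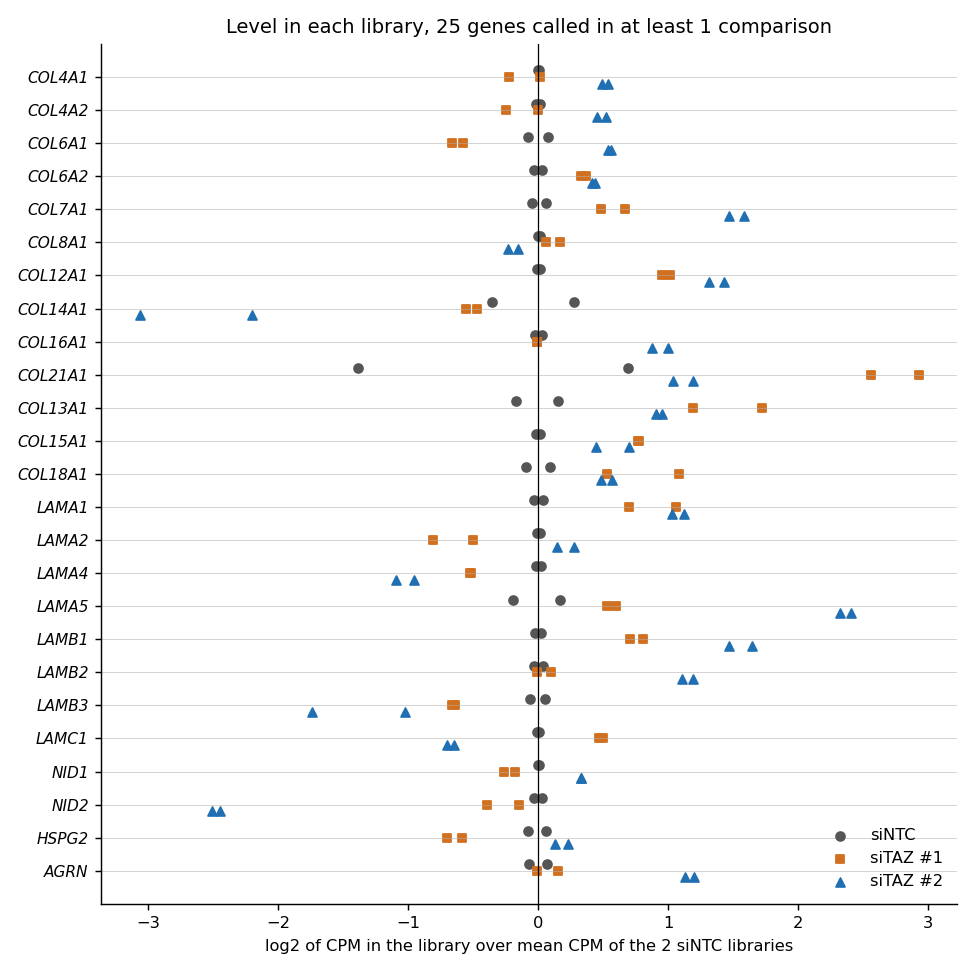
Level of each of the 25 genes called in at least 1 comparison, as log2 of the CPM in a library over the mean CPM of the 2 siNTC libraries (x axis), for siNTC (circles), siTAZ #1 (squares) and siTAZ #2 (triangles), 1 point per library. The triangles of NID2 and COL14A1 lie below -2, those of LAMA5 above 2, and for COL6A1 and LAMC1 the squares and triangles lie on opposite sides of 0.

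In all, 12 of the 34 genes tested had every siTAZ library above both siNTC libraries, where 18.6% of all genes did, and 4 had every one below, where 17.5% did. The 9 genes called in no comparison were COL6A3 and 8 genes at 0.0634 to 5.38 CPM: COL4A3, COL4A4, COL8A2, COL9A2, COL10A1, COL17A1, COL23A1 and LAMA3. Closest to the threshold were LAMA3 between the siRNAs (FDR 0.058), LAMA5 with siTAZ #1 (FDR 0.061), COL21A1 between the siRNAs (FDR 0.077), NID1 with siTAZ #1 (FDR 0.084) and COL18A1 with siTAZ #2 (FDR 0.085). In DESeq2, and in the fit without the genes from RANGAP1 onward, no call of the 34 genes was lost and the same calls were gained. These were LAMA5 with siTAZ #1, COL18A1 with siTAZ #2, and COL13A1, COL21A1 and LAMA3 between the siRNAs.

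Among all genes, the median siTAZ #2 value was highest in the quintile richest in G and C. The 34 genes had a median GC content of 54.1%, against 47.8% for all genes tested with a value, and 14 of them were in the quintile of genes richest in G and C (57.7% to 74.8%). In that quintile the median log2 fold change of all genes was 0.27 with siTAZ #2, 0.03 with siTAZ #1 and -0.26 between the siRNAs, and that of the 14 was 0.74, 0.06 and -0.73. From the poorest quintile upward, the other siTAZ #2 medians of all genes were 0.03, -0.08, -0.12 and -0.02. Of the 34 genes, 11 were in the quintile from 45.0% to 51.1% with a siTAZ #2 median of 0.68, near that of the 14. The 7 at 51.1% to 57.7% had a median of 0.51 and the 2 at 40.4% to 45.0% one of -0.74. With the offset for GC content, 5 of the 34 fell and 10 rose with siTAZ #2, beside 12.5% and 11.1% of all genes, and 3 fell and 8 rose with siTAZ #1, beside 6.99% and 11.2%. Between the siRNAs, the offset turned the split of 13 lower and 5 higher into 10 lower and 7 higher, beside 9.01% and 15.9% of all genes. The rises of LAMA5, COL7A1, AGRN, COL16A1, LAMB1, LAMB2 and COL12A1 with siTAZ #2 were called with and without the offset. Between the siRNAs, the offset moved COL6A1 to -0.77, COL7A1 to -0.54 and COL16A1 to -0.57.

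**Figure D4:**
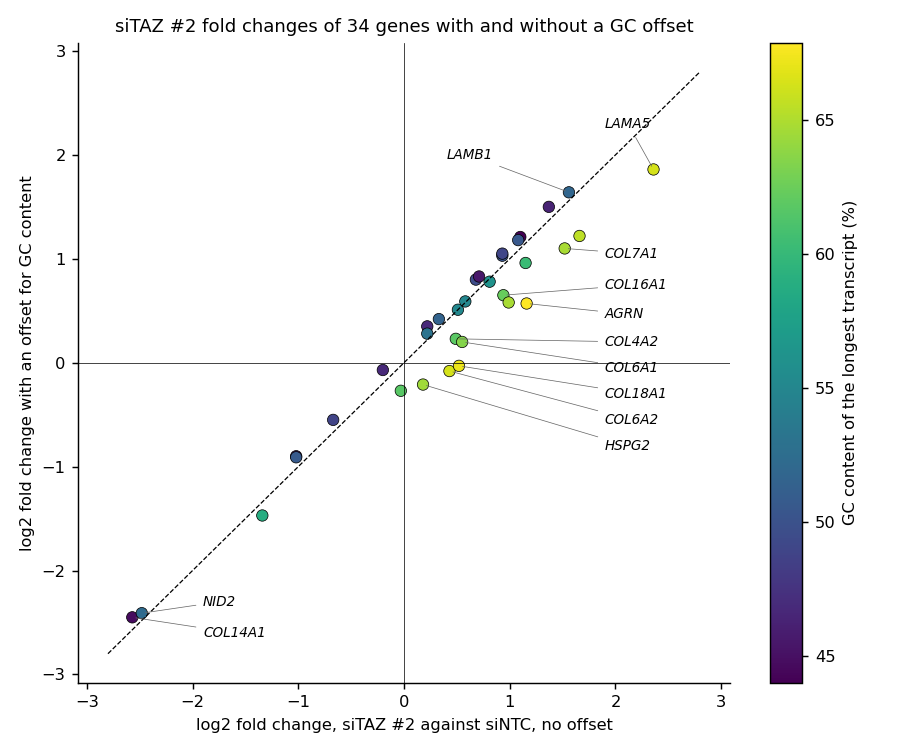
log2 fold change of siTAZ #2 against siNTC without an offset (x axis) and with an offset for GC content (y axis) for the 34 genes tested, called or not, colored by the GC content of the longest transcript. Points on the dashed line did not move, and the points with the highest GC content lie below it, with COL6A2 moved from 0.43 to -0.08 and COL18A1 from 0.52 to -0.03.

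The other 59 genes listed for the pathway were further basement membrane components, receptors, and proteins that fold and secrete collagen, and 49 of them passed the filter. With siTAZ #1, 8 fell and 9 rose, and with siTAZ #2, 9 fell and 15 rose, with median log2 fold changes of 0.10 and 0.16. Of all genes, 9.78% fell and 10.8% rose with siTAZ #1, and 14.4% and 14.1% with siTAZ #2. Without siNTC replicate 1 or 2 the counts with siTAZ #1 were 2 lower and 3 higher in each case, and those with siTAZ #2 were 5 and 4 lower and 6 and 7 higher. Without siTAZ #2 replicate 2 they were 5 lower and 6 higher with siTAZ #2. Shares of all genes under these omissions are not given here either. Of the 18 further components tested, 5 were called the same way by both siRNAs, as were 9.23% of all genes. SMOC1, a calcium-binding matrix protein, rose by 1.31 (SE 0.32, FDR 0.037) with siTAZ #1 and 1.31 (SE 0.32, FDR 0.03) with siTAZ #2. NTN4, a netrin that binds laminin gamma chains, changed by -1.70 (SE 0.13, FDR 0.0014) and -0.79 (SE 0.13, FDR 0.0085). MATN2, an adaptor protein of matrix filaments, changed by -1.0 (SE 0.16, FDR 0.0099) and -1.12 (SE 0.16, FDR 0.0051), and since the study listed it from these samples its direction is no independent evidence. PXDN, the peroxidase that crosslinks collagen IV, rose by 0.51 (SE 0.10, FDR 0.018) and 1.34 (SE 0.10, FDR 0.00087) and was named after its values were seen. Of these calls, those of NTN4 with siTAZ #1 and of MATN2 and PXDN with siTAZ #2 held in every alternative. The SMOC1 calls were lost without any siNTC library (FDR 0.12 to 0.19), and the siTAZ #2 call also without siTAZ #2 replicate 2 (FDR 0.13). A replicate block ended the SMOC1 calls (FDR 0.079 and 0.065) and the siTAZ #1 call of PXDN (FDR 0.052), and the exact test the siTAZ #1 calls of MATN2 and PXDN (FDR 0.074 and 0.39). For NTN4 the siTAZ #2 call was lost without siNTC replicate 2 or either siTAZ #2 library (FDR 0.054 to 0.056), and the siTAZ #1 calls of MATN2 and PXDN without siNTC replicate 1 (FDR 0.061 and 0.16) or 2 (FDR 0.084 and 0.12).

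Of the 16 receptors tested, 6 were called with siTAZ #1 and 12 with siTAZ #2, beside 20.6% and 28.5% of all genes. ITGA2, a collagen-binding integrin chain that also binds laminins, rose by 2.61 (SE 0.14, FDR 0.00065) and 0.86 (SE 0.13, FDR 0.0065). DDR1, a collagen-binding receptor kinase, rose by 0.69 (SE 0.10, FDR 0.0091) and 1.84 (SE 0.11, FDR 0.00063). The paralogs ANTXR1 and ANTXR2, which bind collagen VI, collagen IV and laminin among others, rose by 0.86 (SE 0.08, FDR 0.0025) and 0.64 (SE 0.08, FDR 0.0039), and by 1.23 (SE 0.09, FDR 0.0013) and 0.42 (SE 0.09, FDR 0.021). DDR2, a related receptor kinase of fibroblasts, was the other receptor called the same way by both, and it fell by 0.40 and 0.77 on the log2 scale (FDR 0.039 and 0.0037). Of the 15 folding and secretion genes tested, 4 were called with siTAZ #1 and 7 with siTAZ #2, beside the same 20.6% and 28.5%. SEC23A, a coat protein of the vesicles that leave the endoplasmic reticulum, changed by -0.43 (SE 0.08, FDR 0.015) and -0.73 (SE 0.08, FDR 0.0023), and KLHL12, the adaptor that helps to enlarge these vesicles for collagen, by -1.11 (SE 0.14, FDR 0.0055) and -0.70 (SE 0.14, FDR 0.016). PLOD3, which hydroxylates and glycosylates lysines of collagen IV and others, rose by 0.40 (SE 0.10, FDR 0.036) and 0.60 (SE 0.10, FDR 0.0079). The siTAZ #1 calls of ITGA2, ANTXR1 and ANTXR2 and the siTAZ #2 calls of DDR1, DDR2 and SEC23A held in every alternative. Without siNTC replicate 1 or 2 the siTAZ #1 calls of DDR1, DDR2, SEC23A, KLHL12 and PLOD3 were lost (FDR 0.053 to 0.21), as were the siTAZ #2 calls of ANTXR2, KLHL12 and PLOD3 (FDR 0.076 to 0.16), that of ANTXR1 without replicate 1 (FDR 0.054) and that of ITGA2 without replicate 2 (FDR 0.062). Without siTAZ #2 replicate 2 the siTAZ #2 calls of ITGA2, ANTXR2, KLHL12 and PLOD3 were lost (FDR 0.051 to 0.098), that of ANTXR2 also without siTAZ #2 replicate 1 (FDR 0.098), the siTAZ #1 calls of PLOD3 and DDR2 without either siTAZ #2 library (FDR 0.055 to 0.075), and that of DDR2 without siTAZ #1 replicate 2 (FDR 0.085). The exact test ended the siTAZ #1 calls of DDR1, DDR2, SEC23A and PLOD3 (FDR 0.24 to 0.55). A replicate block ended those of DDR2 (FDR 0.08) and PLOD3 (FDR 0.086) and the siTAZ #2 call of ANTXR2 (FDR 0.056), and a fit of 4 libraries those of DDR2 (FDR 0.069) and PLOD3 (FDR 0.058) with siTAZ #1. The GC offset ended the siTAZ #1 call of DDR2 (FDR 0.054), and the length offset those of SEC23A with siTAZ #1 (FDR 0.07) and ANTXR2 with siTAZ #2 (FDR 0.055). The GC offset with a replicate block ended the siTAZ #2 calls of KLHL12, PLOD3 and ANTXR2 (FDR 0.056 to 0.071) and the siTAZ #1 call of DDR2 (FDR 0.099).

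COL4A5 and COL4A6, a second head-to-head pair of collagen IV chains on the X chromosome, and FBLN1 lie in the stretch that is nearly missing from siTAZ #1 replicate 2. COL4A5 had 66.4 and 59.4 CPM with siNTC, 174 and 2.27 with siTAZ #1, and 114 and 133 with siTAZ #2, and COL4A6 had 7.99 and 6.44 CPM with siNTC, 44.1 and 0.583 with siTAZ #1, and 23.9 and 32.4 with siTAZ #2. Apart from that library, both genes stood above siNTC in every siTAZ library. Neither was called with all libraries (FDR 0.37 to 0.84). Without siTAZ #1 replicate 2, COL4A5 rose by 1.47 with siTAZ #1 (SE 0.13, FDR 3.6e-08) and by 0.97 with siTAZ #2 (SE 0.11, FDR 4.5e-07). COL4A6 then rose by 2.61 (SE 0.22, FDR 2.7e-08) and 1.96 (SE 0.20, FDR 1e-07). FBLN1, a fibulin that binds basement membrane proteins, was then at 0.12 with siTAZ #1 (SE 0.10, FDR 0.44) and -0.31 with siTAZ #2 (SE 0.08, FDR 0.0047). In that fit the remaining siTAZ #1 library has no replicate, and its spread is taken to equal that of the other groups.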

How the data were processed

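The data are RNA-seq read counts of HFL-1 cells, 2 libraries for each of siNTC, siTAZ #1 and siTAZ #2. The authors aligned the Ion Proton reads with TMAP to hg19 and used HTSeq 0.6.1 to count reads per gene, and the deposited counts are raw. The strand setting and counting mode are not given in the sources used here. Of 23368 entries, 13 with a date in place of a symbol were left out (0.0458% to 0.0506% of a library), which left 15648055 to 32078188 counts per library. GENCODE v44lift37 gave GRCh37 positions, transcript lengths and GC content for 21478 symbols.

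Genes passed filterByExpr, libraries were scaled by TMM, and edgeR 4.0.16 in R 4.3.3 fitted all 6 libraries together, by group alone, for its quasi-likelihood test. The p-values of the 14053 genes tested were adjusted by the Benjamini-Hochberg method, and FDR below 0.05 was called. The SE of a log2 fold change was derived from its F statistic. The labels number the replicates, and the authors state that the TAZ siRNAs were transfected in duplicate. No permutation of 2 against 2 libraries can go below p = 0.333. The fit was also run on simulated data with a dispersion of 0.0163 and no missing stretch, which does not test it at the spread of these libraries.

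The 40 genes, the lists and the tests were chosen with earlier results of these data known. Values are given for every member called in a comparison and for the 5 with the highest level per kilobase in siNTC, and of the other pathway genes for those called the same way by both siRNAs, at most 4 a list by mean log2 fold change, apart from 1 that is not reported here. Over all genes tested, the 2 replicates of a group differed by a mean chi-square per gene of 5.39 (siNTC), 92.2 (siTAZ #1) and 11.7 (siTAZ #2). These means include the stretch nearly missing from siTAZ #1 replicate 2, where none of the 40 genes lies. They were not computed without it, so the siTAZ #1 value is not read as the spread of the 40 genes. Alternatives were DESeq2 1.42.0, edgeR's exact test and a quasi-likelihood fit on 4 libraries, scaling by RLE, by upper quartiles or by library totals, no filter, a mean count of at least 50, a replicate block, leaving out each library, leaving out the genes that nearly lack counts in siTAZ #1 replicate 2, a robust dispersion, offsets for GC content (known for 95.6% of the genes tested) and length, the block with the GC offset, an FDR of 0.1, and levels per kilobase of the exon union. Depth limits the 6 genes that were not tested, whose changes were not detectable at 0 to 13 counts.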

Additional observations from a re-analysis of the deposited data

Results flagged for a closer look

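COL6A1 and LAMC1 stood out because the same contrast with siNTC gave effects of opposite sign with the siRNAs, with the difference itself tested. For COL6A1 the difference was -1.17 on the log2 scale (siTAZ #1 minus siTAZ #2, SE 0.09, FDR 0.001 by edgeR's quasi-likelihood test), from -0.62 with siTAZ #1 and 0.55 with siTAZ #2. For LAMC1 it was 1.16 (SE 0.07, FDR 0.00072), from 0.48 with siTAZ #1 and -0.67 with siTAZ #2. Every library of a siTAZ group moved the way of its group in both genes. The differences held in every alternative, but not all calls against siNTC did. The siTAZ #1 calls of both genes were lost in the exact test and without either siNTC library, and that of COL6A1 also with the GC offset and a replicate block together. The siTAZ #2 call of COL6A1 was lost with the GC offset, alone or with a replicate block, and without either siNTC library or siTAZ #2 replicate 2. That of LAMC1 held. WWTR1 itself was lower with siTAZ #1 than with siTAZ #2 by a log2 difference of -0.70, and the part of this in either result was not tested.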

How the results depend on the processing

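Over single genes, 2521 of the values recomputed under an alternative kept their sign and side of the threshold, 43 that were called in neither fit turned their sign, 214 lost a call, 59 gained one and 4 that were called in at least 1 of the fits changed direction. These 4 were COL6A2 with siTAZ #2 at -0.08 with the GC offset, alone or with a replicate block, and COL4A5 and COL4A6 with siTAZ #1 at -4.79 and -3.62 without siTAZ #1 replicate 1, when that group rests on the library that nearly lacks the X chromosome. Without siTAZ #1 replicate 2 they were at 1.47 and 2.61. edgeR's exact test called 0 of the 40 genes lower (2 at an unadjusted p under 0.05) and 3 higher with siTAZ #1, 7 lower between the siRNAs, and with both siRNAs 0 lower and 2 higher, and of the other pathway genes 4 lower and 4 higher with siTAZ #1 and 14 lower with siTAZ #2. DESeq2 and the fit without the genes from RANGAP1 onward each called 8 higher between the siRNAs. The replicate block with the GC offset called 1 lower with siTAZ #1, 8 higher with siTAZ #2, 8 lower between the siRNAs, and with both 0 lower and 4 higher, and 5 other pathway genes lower with siTAZ #1. Deviations of same-numbered libraries correlated at -0.01 and 0.02 for siNTC with siTAZ #1 and siTAZ #2, and at -0.29 between the siTAZ groups. None was clearly positive, so the numbers were not taken as pairs. The replicate block alone left 11, 18 and 16 of the 14, 20 and 18 calls of the 40 genes in the 3 comparisons and added none, and moved the other pathway genes with siTAZ #1 to 5 lower and 5 higher. Leaving out 1 library gave 0 to 5 lower and 1 to 11 higher with siTAZ #1, 4 to 5 and 7 to 17 with siTAZ #2, 9 to 14 and 4 to 7 between the siRNAs, and 0 to 2 and 1 to 9 with both. For the other pathway genes it gave 2 to 12 and 3 to 12 with siTAZ #1, and 4 to 13 and 6 to 19 with siTAZ #2. Where an omission leaves a group with 1 library, its spread is taken from the other groups. Shares of all genes are not given beside the counts of this section, which are not read as particular to the listed genes. The cause of the other lost calls was not tested.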
